A study of Mus musculus with 44 samples.

Results

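The retinoic acid receptor genes Rara, Rarb and Rarg were followed in RNA from the nucleus accumbens of mice that had received a viral vector for retinoid X receptor alpha (RXRa) or for a fluorescent protein. The 3 genes were taken by symbol from the 55487 gene identifiers of 2 deposited count tables. All 3 were listed in both tables, and all 3 passed the filter on low counts in both. In bulk tissue Rarb took the largest share of the 3 transcripts per exon length, with Rarg next and Rara last. In sorted nuclei only Rarb stood above the level of genes that are silent in this tissue. The 1 change of a receptor that passed the test was a rise of Rarb in D2 nuclei with the RXRa vector, and most other genes well above background rose in the same libraries.

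The bulk libraries are of males given a vector built on herpes simplex virus, labelled HSV-GFP in 4 libraries and HSV-RXRa-GFP in 4. Sorted nuclei, labelled D1 or D2 for the dopamine receptor (Drd1 or Drd2) of the striatal neurons sorted, came from mice with AAV9-CAG-DIO-EGFP or AAV9-CAG-DIO-EGFP-P2A-RXRa, adeno-associated virus vectors whose insert is switched on by Cre recombinase. D1 nuclei of females and of males each gave 5 EGFP and 4 RXRa libraries, D2 nuclei of females 4 and 4, and D2 nuclei of males 5 and 4. Mouse strain, the source of Cre, age, the time after infusion and whether animals were pooled are not given in the sources used here, so the p-values measure the spread between these libraries, which may in part be technical.

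Retinoic acid receptors are nuclear receptors that bind all-trans retinoic acid, the active form of vitamin A. They bind DNA as heterodimers with a retinoid X receptor, at direct repeats of a hexamer related to AGGTCA. Without ligand the pair recruits corepressors such as Ncor1, and with ligand it exchanges them for coactivators such as Ncoa1 and the histone acetyltransferases Crebbp and Ep300. Rarb is itself a classical target of retinoic acid through a repeat in its own promoter. In the striatum Rarb is the best known of the family, with a role in the development of its projection neurons, and Drd2 is among the genes that retinoic acid receptors are known to control.

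Library totals were 21567565 to 29167142 counts for bulk tissue, and for the 35 sorted libraries with a group 12211655 to 27757463 counts. The RXRa sequence of the vector, which has its own entry in the tables, had 0 counts in the 4 bulk GFP libraries and 22.1 to 37.7 CPM (counts per 1000000 of a library's total after TMM scaling) in the 4 bulk RXRa libraries. Among sorted libraries it reached at most 0.875 CPM in the 19 with EGFP and was 43.3 to 709 CPM in the 16 with RXRa, so every library with a group matched its vector label. Under EGFP, 5 of 5 D2 markers in the table were called higher in D2 than in D1 nuclei and 4 of 6 D1 markers lower, with Drd2 at 680 against 60.2 CPM and Drd1 at 12.3 against 49.7 CPM. Counts in the sorted libraries covered whole gene bodies and not only exons. The background of each sorted library was therefore described by its silent-gene density, which is the CPM per kb of gene body of the median gene among 1576 without a single count in bulk tissue. These are protein-coding, autosomal and 5 kb or longer. This density was 0.471 to 0.565 CPM per kb in the EGFP libraries and 0.379 to 0.539 in the RXRa libraries.

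The 3 receptor genes lie on separate chromosomes (GENCODE M21, assembly GRCm38) and differ widely in length. Rara (ENSMUSG00000037992) lies on chromosome 11 from 98927818 to 98974942 on the plus strand, with a gene body of 47.1 kb and 4.37 kb of exons. Rarb (ENSMUSG00000017491) lies on chromosome 14 from 16430839 to 16819156 on the minus strand, with a gene body of 388 kb and 5.27 kb of exons. Rarg (ENSMUSG00000001288) lies on chromosome 15 from 102234938 to 102257517 on the minus strand, with a gene body of 22.6 kb and 4.26 kb of exons. Their annotated transcripts shared no sequence of 31 bases with each other, so reads of 1 receptor are unlikely to be counted for another. The 3′ part of Rarb overlaps Top2b, the gene of topoisomerase II beta on the opposite strand, with 1793 exon bases in common, and Rarb also shares 227 exon bases with the antisense gene Gm48162. Whether strand was used in counting is not given in the sources used here, so reads from these shared bases cannot be told apart and the value of Rarb is uncertain to that extent. Rara hosts the small nuclear RNA gene Gm22061, with no exon bases in common.

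The promoter repeat through which Rarb is known to respond to retinoic acid was looked for in the RefSeq promoter windows of assembly GRCm38.p6, each from 250 bases before to 50 bases after an annotated start. The search was for 2 copies of a hexamer in the same direction, which could be AGGTCA or its variant forms AGTTCA or else GGGTCA or else GGTTCA, spaced by 1, 2 or 5 bases, on both strands. A repeat spaced by 5 was found in 32 of 32851 windows (0.0974%), which belonged to 31 of 27025 genes. Rarb had 1 such repeat, 53 bases before its RefSeq start. It is shown with that of Cyp26a1, the retinoic acid hydroxylase that is the other gene of the pathway lists with this repeat, so that the shared layout can be seen. Capitals mark the 2 hexamers, and both are written 5′ to 3′ on the strand on which the repeat reads, the minus strand of chr14:16575505-16575534 for Rarb and the strand opposite to the gene at chr19:37697771-37697800 for Cyp26a1.
Rarb: ggaagGGTTCAccgaaAGTTCActcgcata
Cyp26a1: gacaaattAGTTCAcccaaAGTTCAtcttt
The 250 bases before the RefSeq start of Rarb all lie within GENCODE exons, and the stretch shown falls in exons of the transcripts Rarb-201 and Rarb-207. The 4 windows of Rara and the 2 windows of Rarg held no repeat with any of the 3 spacings. A match is only a match of letters, and its absence says only that these letters are not in these windows.

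In bulk tissue the order of the receptors per exon length was Rarb, Rarg and Rara under both vectors. Under GFP the level per kb of exon was 12.2 ± 1.25 CPM for Rarb, 4.57 ± 0.386 for Rarg and 2.79 ± 0.166 for Rara (SD, n = 4). No library broke this order. As shares of the 3 transcripts, Rarb held 62.3% ± 1.99, Rarg 23.4% ± 1.53 and Rara 14.3% ± 1.68 (SD, n = 4). On the same scale the partner genes had 45.3 ± 7.96 CPM per exon kb for Rxrg, 24.96 ± 0.418 for Rxrb and 9.40 ± 0.868 for Rxra (SD, n = 4), so that Rxrg and Rxrb lay above Rarb and Rxra below it. Divided by gene body instead of exons, the shares were 12.9% for Rarb, 67.0% for Rarg and 20.2% for Rara, so the order depends on the length used. Poly(A)-selected RNA is mostly spliced, for which exon length is the usual measure.

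**Figure D1:**
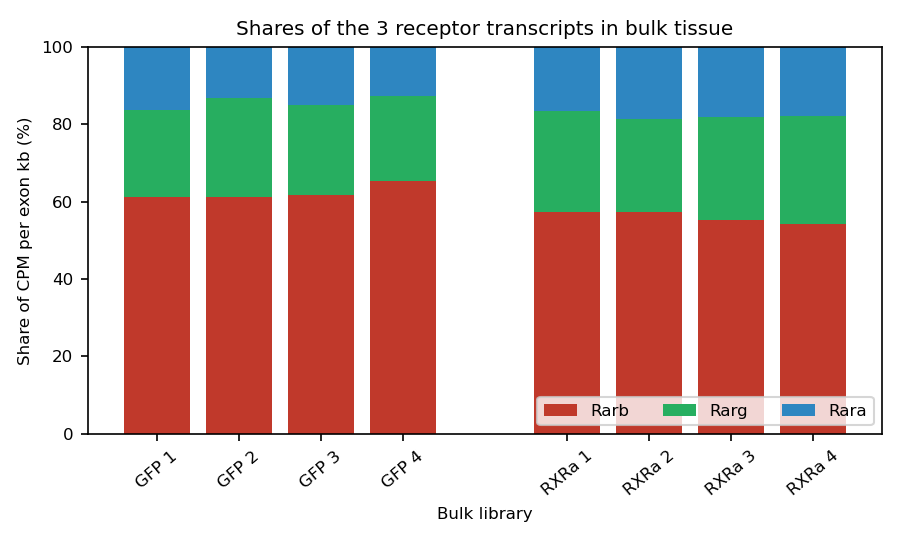
Stacked bars give the share (%) of Rarb, Rarg and Rara in the sum of their CPM per kb of exon, 1 bar for each bulk library. Rarb takes 61.1 to 65.3% in the 4 GFP libraries and 54.2 to 57.4% in the 4 RXRa libraries.

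Rara, which is expressed in most tissues, had 13.0, 11.4, 12.5 and 11.8 CPM in the bulk GFP libraries and 14.8, 14.9, 14.2 and 14.1 CPM in the RXRa libraries. The groups did not overlap, since every RXRa library was above every GFP library. How many of all genes separate the groups in this way was not counted, so a lack of overlap is only description here and below. The log2 fold change was 0.25 (SE 0.07, 95% interval 0.09 to 0.42), with an edgeR adjusted p of 0.0903 over 18579 genes, which did not pass 0.05. DESeq2 gave an adjusted p of 0.0416. In this comparison edgeR called 3.7% of all genes tested, 559 higher (3.01%) and 128 lower (0.689%), and called 0 of the 3 receptors. Without GFP replicate 4 the number of genes called fell from 687 to 9. At an unadjusted p under 0.05, 2 of the 3 receptors and 21.5% of all genes passed.

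Rarb had 58.9, 63.0, 61.4 and 73.8 CPM under GFP and 62.0, 55.1, 52.2 and 51.4 CPM under RXRa. The groups overlapped through RXRa replicate 1, which lay above GFP replicates 1 and 3. The log2 fold change was -0.22 (SE 0.09, 95% interval -0.41 to -0.03, adjusted p = 0.182). Rarg, the receptor best known from skin, had 17.6, 21.3, 18.7 and 20.3 CPM under GFP and 22.8, 18.6, 20.3 and 21.3 CPM under RXRa, and the groups lay across each other. Its log2 fold change was 0.09 (95% interval -0.11 to 0.29, adjusted p = 0.588).

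The share of Rarb among the 3 receptors was 56.1% ± 1.56 under RXRa, a difference of -6.23 percentage points from GFP, and no RXRa library reached the lowest GFP library. The exact two-sided permutation p was 0.0286, the smallest that 4 against 4 libraries allow, and 0.137 after adjustment over the 24 share comparisons made. The share of Rara was 17.8% ± 0.917, 3.51 points above GFP, with the same exact permutation p and adjusted p and again no overlap. The share of Rarg was 26.1% ± 1.61, 2.72 points above GFP (exact permutation p = 0.0571, adjusted p = 0.137). None of the 3 shares passed after adjustment.

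Other cell types and an antiviral program differed between the same bulk libraries. All 5 of 5 T and NK cell markers were called higher with RXRa, and their summed level was 79.2 to 180 CPM against 39.4 to 67.2 under GFP. Of 20 interferon response genes, 19 were called higher. Summed fibroblast and meninges markers were 76.6 to 121 against 41.5 to 71.2 CPM, with 2 of 5 called higher. All 5 D2 markers had log2 fold changes below 0 (median -0.22), with 1, Gpr6, called lower, and 5 of 6 D1 markers were below 0 (median -0.06). Summed oligodendrocyte markers were 2583 to 4466 CPM with RXRa against 4270 to 4806 under GFP, with 0 of 5 called, all 5 below 0 (median -0.34) and 2 at an unadjusted p under 0.05. Of 5 astrocyte and 4 endothelial markers, 1 each was called higher. None of 5 microglia, 4 cortical excitatory and 4 interneuron markers was called. Summed cortical excitatory markers were 6.997 to 677 CPM under GFP and 63.81 to 502.5 CPM with RXRa. The cause of this wide spread within each group was not tested. Over all genes 3.01% were called higher and 0.689% lower. No marker of these lists was at 0 in every library. The part of these cell types in the receptor values was not tested, and in bulk tissue fewer cells of a type and less RNA per cell cannot be told apart.

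**Figure D2:**
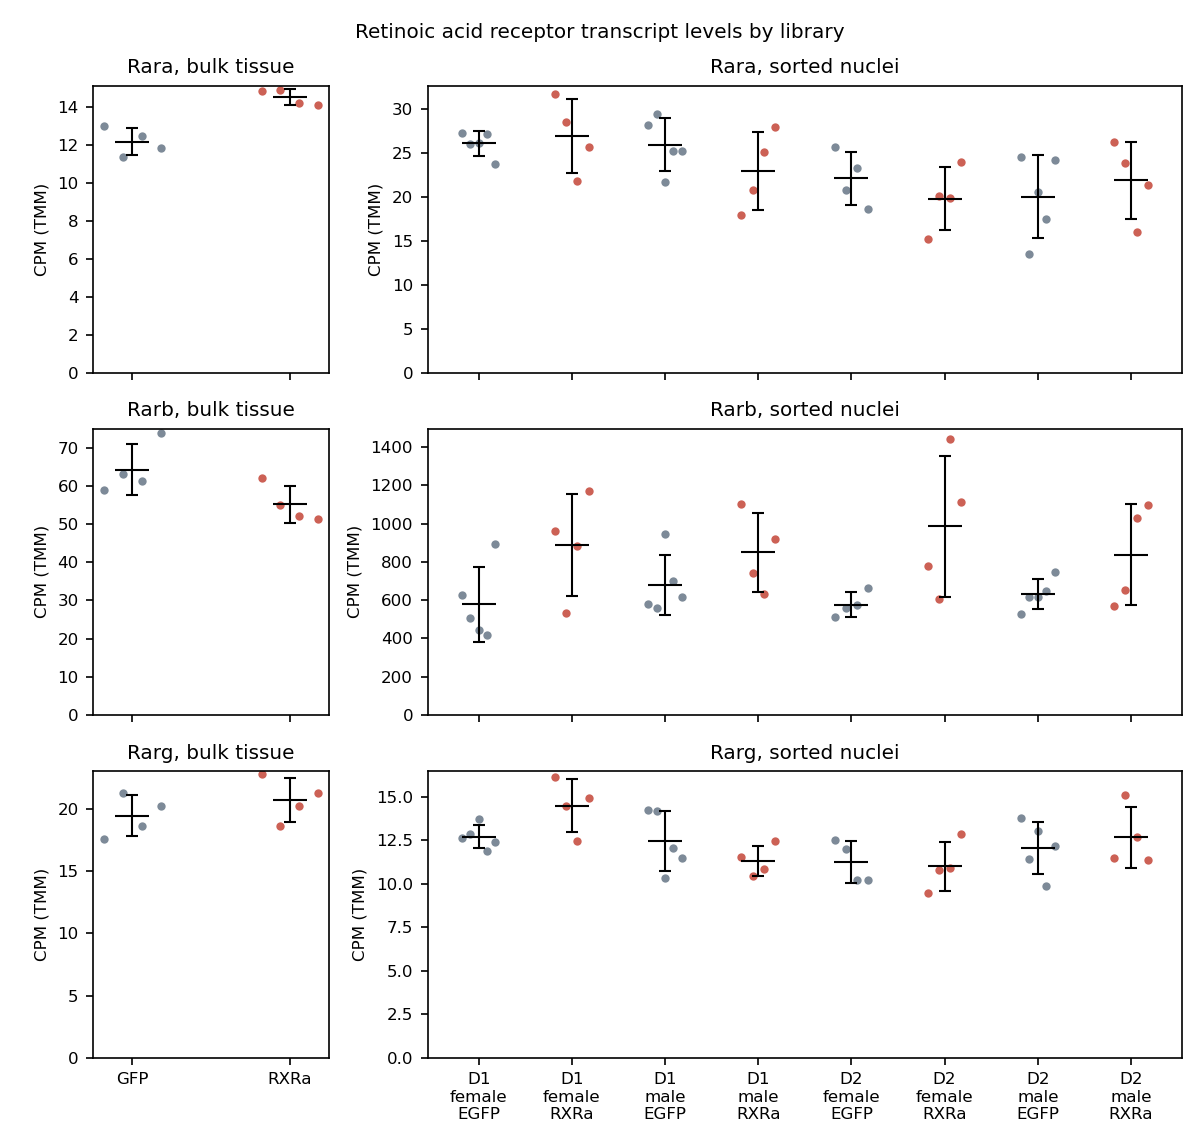
CPM of Rara, Rarb and Rarg in each library (points, grey for GFP or EGFP and red for RXRa), with the mean and SD of each group in black, for bulk tissue on the left and sorted nuclei on the right, each panel with its own axis from 0. Rarb reaches 1443 CPM in 1 D2 female RXRa library, while the EGFP libraries lie between 419 and 945 CPM.

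In the sorted nuclei Rarb was far above background and Rara and Rarg were not. Over 35 libraries the level of Rarb per kb of gene body was 2.02 to 9.64 times the silent-gene density, with a mean ratio of 4.01, and 99.9% of the silent genes had a lower mean ratio. The ratio was 0.52 to 1.78 for Rara, with a mean of 1.02, and 0.795 to 1.89 for Rarg, with a mean of 1.12. The middle 90% of silent genes spanned 0.356 to 1.56, so the mean ratios of Rara and Rarg lay inside the range of silent genes. Rara was under a ratio of 1 in 16 of the 35 libraries and Rarg in 14. Expression of Rara and Rarg above background was thus not detectable in these libraries, although the counts were 181 to 833 for Rara and 123 to 411 for Rarg, and the comparisons of these genes below describe mainly background. Of the partner genes, Rxra had a mean ratio of 0.903, Rxrb 2.04 and Rxrg 2.72.

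**Figure D3:**
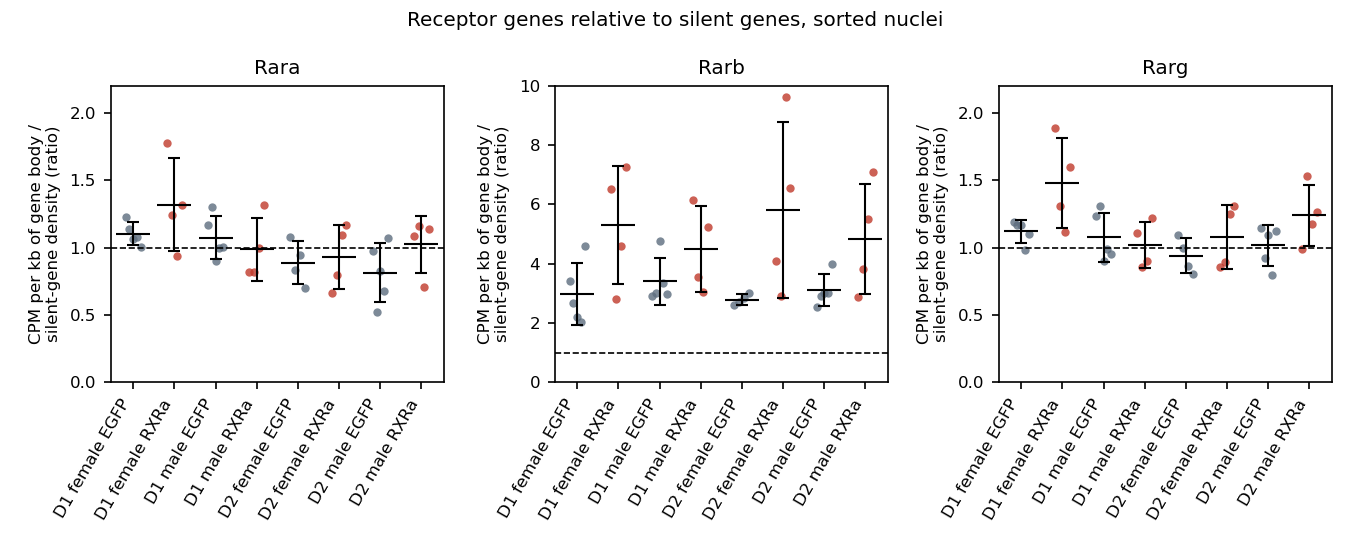
Ratio of CPM per kb of gene body to the silent-gene density of the same library, for the 8 sorted groups (points are libraries, black bars the mean and SD, dashed line a ratio of 1). Rara and Rarg scatter around 1, and Rarb lies between 2.02 and 9.64.

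Rarb levels in D1 and D2 nuclei overlapped under EGFP. In D1 females they were 626, 507, 443, 419 and 895 CPM, and in D1 males 579, 562, 945, 700 and 618 CPM. In D2 females they were 513, 557, 575 and 664 CPM, and in D2 males 529, 618, 618, 645 and 746 CPM. The D2 libraries lay inside the range of the D1 libraries. The D2 to D1 log2 fold change under EGFP was -0.06 (SE 0.16, 95% interval -0.39 to 0.27, adjusted p = 0.926), an interval that leaves room for a difference in either direction, and the sign was turned by leaving out D1 female replicate 5 (0.05) or D1 male replicate 3 (0.02). Only 0.121% of all genes were called in this comparison.

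Rara was 21.7 to 29.4 CPM in the D1 EGFP libraries (median 26.1, n = 10) and 13.5 to 25.7 CPM in the D2 EGFP libraries (median 20.9, n = 9). The ranges overlapped. The log2 fold change of D2 against D1 was -0.30 (SE 0.10, 95% interval -0.51 to -0.09), with an adjusted p of 0.296. With RXRa the corresponding value was -0.25 (SE 0.11, adjusted p = 0.155), in a comparison that called 8.38% of all genes. Rarg was 10.3 to 14.3 CPM in D1 and 9.88 to 13.8 CPM in D2 under EGFP, with a log2 fold change of -0.11 (95% interval -0.26 to 0.04, adjusted p = 0.614). All 3 receptors were thus without a call between the populations.

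In D2 nuclei Rarb rose with RXRa. The D2 female RXRa libraries had 781, 607, 1443 and 1110 CPM, and 3 of the 4 were above every D2 female EGFP library. The D2 male RXRa libraries had 571, 651, 1029 and 1097 CPM, and 2 of the 4 were above every D2 male EGFP library. The mean was 911 ± 308 CPM with RXRa (SD, n = 8) against 607 ± 73.1 with EGFP (SD, n = 9), so the groups overlapped and the spread was wider with RXRa. The log2 fold change was 0.59 (SE 0.17, 95% interval 0.24 to 0.94), with an edgeR adjusted p of 0.0184 over 43902 genes. In this comparison 22.1% of all genes were called, 14.9% higher and 7.14% lower, so 1 call among 3 receptors is near the background. Within the sexes the log2 fold change was 0.77 in D2 females (SE 0.25, adjusted p = 0.0954) and 0.41 in D2 males (SE 0.24, adjusted p = 0.321), neither of which passed. Within a sex edgeR called 0% of all genes in D2, and 25.2% in females and 19.7% in males had an unadjusted p under 0.05.

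The call for Rarb rested on few libraries. Without D2 female RXRa replicate 4 the log2 fold change was 0.45 (adjusted p = 0.0879) and the number of genes called in this comparison fell from 9683 to 0. Without D2 male RXRa replicate 5 the value was 0.49 (adjusted p = 0.0675) and 1626 genes were called. Without both, an alternative chosen after these values were seen, it was 0.42 (adjusted p = 0.196), again with 0 genes called. These were the D2 RXRa libraries with the lowest silent-gene density of their sex. With silent-gene density as a covariate in the fit, the log2 fold change of Rarb was -0.05 (SE 0.13, adjusted p = 1). That covariate was the log2 of the density on library totals, without the TMM scaling of the densities given elsewhere. On that scale these 2 libraries had 0.303 and 0.333 CPM per kb, in place of 0.385 and 0.398. No fit was made with the TMM-scaled density.

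In D1 nuclei the values of Rarb pointed the same way without passing the test. The D1 female RXRa libraries had 961, 532, 882 and 1170 CPM, of which 2 were above every D1 female EGFP library. The D1 male RXRa libraries had 1104, 741, 632 and 921 CPM, of which 1 was above every D1 male EGFP library. The log2 fold change over both sexes was 0.47 (SE 0.17, 95% interval 0.13 to 0.81), with an edgeR adjusted p of 0.582. By sex it was 0.62 in females (adjusted p = 0.787) and 0.32 in males (adjusted p = 0.978), where 6.29% and 3.02% of all genes had an unadjusted p under 0.05 and 0% were called. Over both sexes no gene was called in D1 by edgeR, DESeq2 or limma voom (0%), while DESeq2 called 4 in D1 females, and 8.02% of all genes, Rarb among them, had an unadjusted edgeR p under 0.05. The difference of the vector effect between D2 and D1 was 0.12 on the log2 scale for Rarb (SE 0.24, 95% interval -0.37 to 0.61, adjusted p = 0.887), so a call in D2 and none in D1 does not show that the populations differ. For this difference 0% of all genes were called by edgeR and 8.22% had an unadjusted p under 0.05.

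No receptor was called between the sexes. Under EGFP, Rarb was 0.18 higher in males on the log2 scale (SE 0.16), Rara -0.07 (SE 0.10) and Rarg 0.04 (SE 0.07), each with an adjusted p of 1, while 4.43% of all genes were called. The vector effect on Rarb differed between males and females by -0.33 (SE 0.24, 95% interval -0.82 to 0.16, adjusted p = 1), a contrast with 0% of all genes called by edgeR and 2.14% at an unadjusted p under 0.05.

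**Figure D4:**
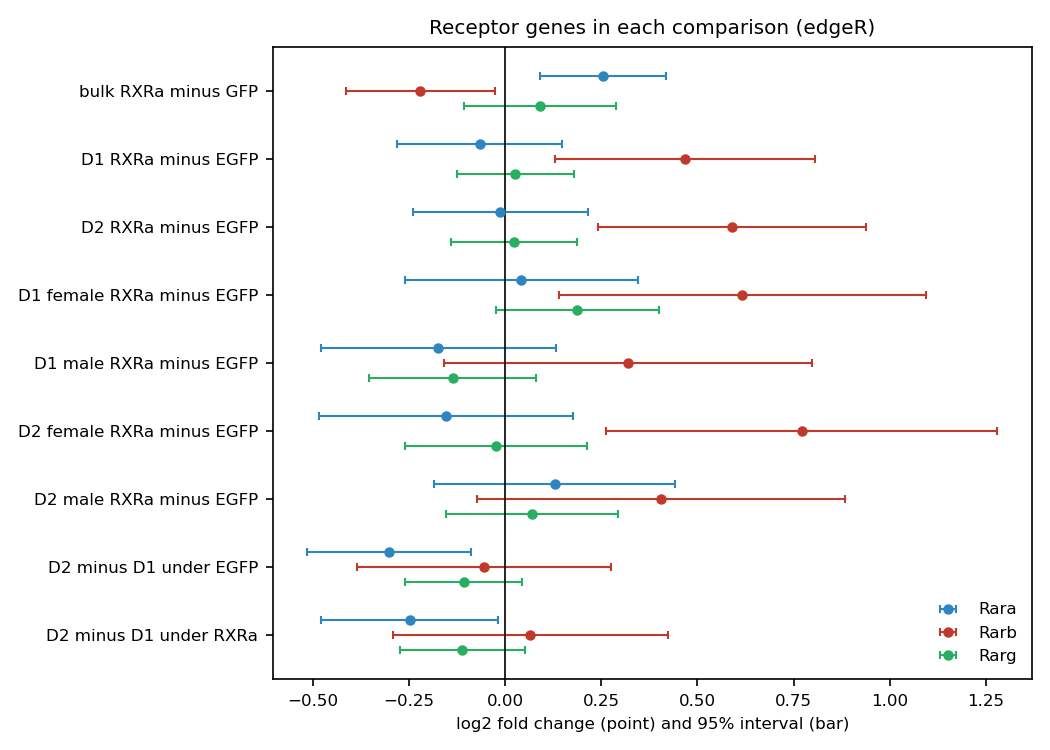
Log2 fold changes (points) of Rara, Rarb and Rarg with 95% intervals (bars) in 9 comparisons fitted with edgeR. The D2 value of Rarb, 0.59, is the 1 that passed an adjusted p of 0.05, although the intervals of some other values also lie to one side of 0.

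Rara and Rarg had no call with the vector in sorted nuclei. In D2, Rara averaged 20.9 ± 3.87 CPM with RXRa and 20.98 ± 3.95 CPM with EGFP (log2 fold change -0.01, 95% interval -0.24 to 0.22, adjusted p = 0.956). In D2, Rarg averaged 11.8 ± 1.72 CPM with RXRa and 11.7 ± 1.36 CPM with EGFP (log2 fold change 0.02, 95% interval -0.14 to 0.19, adjusted p = 0.864). In D1, the log2 fold changes were -0.07 for Rara (95% interval -0.28 to 0.15) and 0.03 for Rarg (95% interval -0.13 to 0.18). The signs of the D2 value of Rara and of both Rarg values turn under some of the settings tried, and all lie within the spread of the libraries.

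The share of Rarb among the 3 receptors per exon length was, in sorted nuclei, 93.8% ± 1.33 in D2 EGFP libraries (SD, n = 9) and 92.6% ± 2.07 in D1 EGFP libraries (SD, n = 10). With RXRa it was 95.4% ± 1.81 in D2 and 94.7% ± 1.76 in D1 (SD, n = 8 each). The exact permutation p within sexes was 0.057 for D2 and 0.0404 for D1, each 0.137 after adjustment over 24 comparisons. After subtracting the level expected at silent-gene density, the differences were -0.314 points in D2 (exact permutation p = 0.265) and 0.0468 points in D1 (exact permutation p = 0.927), in place of 1.66 and 2.06. Negative values were set to 0 in this step. The mean Rarb share was then 99.39% with RXRa and 99.7% with EGFP in D2, and 98.83% and 98.78% in D1. With Rara and Rarg near background, shares so close to 100% leave little room for a difference, so this step cannot decide whether the share changed. Per gene-body length, a choice made after the counts had been seen to follow gene-body length, the Rarb share was 61.8% in D2 and 58.4% in D1 EGFP libraries. The 2 kinds of RNA are counted over different parts of these genes, so a bulk share and a sorted share are not comparable, and none of the vector differences passed by either length.

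The highest Rarb levels were found in libraries of low silent-gene density. All 7 sorted libraries with more Rarb than any EGFP library were RXRa libraries, 4 of D2 and 3 of D1, and their silent-gene densities were 0.379 to 0.480 CPM per kb. The other 9 RXRa libraries had densities of 0.437 to 0.539, which overlap the 0.471 to 0.565 of the 19 EGFP libraries. At the silent-gene density of its own library, the Rarb gene body alone would give 10.4 to 49.6% of the Rarb counts, the lowest share being that of D2 female RXRa replicate 4 and the highest that of D1 female EGFP replicate 4. The covariate fit given for D2 left no positive value for Rarb, and in D1 it left 0.15 of 0.47. That fit used the density on library totals and not the TMM-scaled density of this paragraph. Density and vector overlap in these libraries, so the part of each in the Rarb values cannot be told apart. Rarb level and density are also both taken relative to the counts of the same library, so they are not independent measures.

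**Figure D5:**
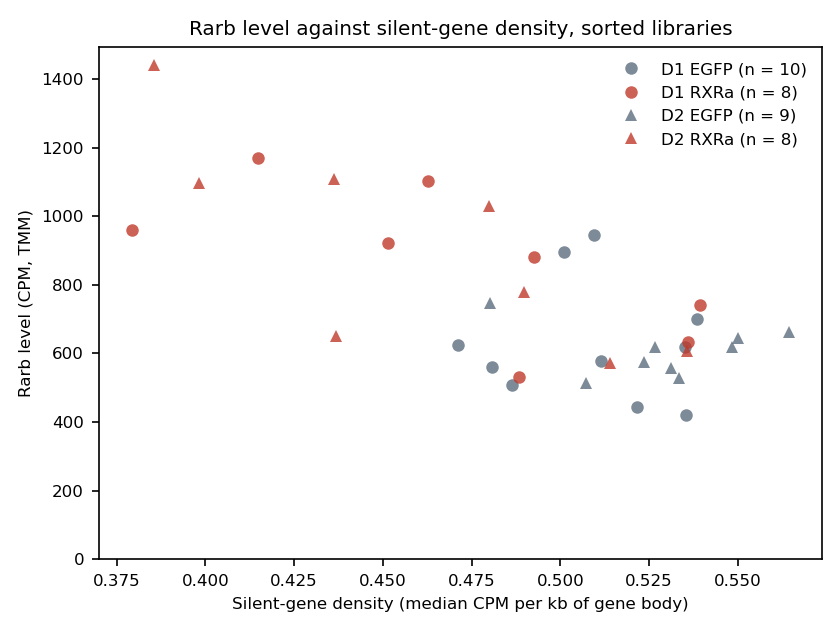
Rarb level (CPM) against silent-gene density (median CPM per kb of gene body) in the 35 sorted libraries, circles for D1 and triangles for D2, grey for EGFP and red for RXRa. The 7 libraries above the highest EGFP library are all red and have densities of 0.379 to 0.480.

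Rarb was not alone in this. Of the 262 long protein-coding genes (100 kb or more) that, like Rarb, exceeded 2 times the silent-gene density under EGFP, 249 (95%) were called higher in D2 with RXRa and 1 lower, with a median log2 fold change of 0.45, and 84.4% of them had a smaller value than Rarb. In D1 the same 262 genes had a median of 0.26 with none called, and 97.7% were below Rarb. Among the 2229 genes of this length at or below that level, 25.5% were called higher in D2 and the median was 0.02. Shorter genes above that level, 2132 in number, had a median of 0.44 in D2 with 65% called higher. The overlapping gene Top2b was called higher as well, with 117 ± 33.6 CPM against 81.4 ± 13.1 CPM in D2 (log2 fold change 0.53, SE 0.14, adjusted p = 0.0128). The antisense gene Gm48162 was called too, at 2.98 against 2.05 CPM (log2 fold change 0.55, SE 0.15, edgeR adjusted p = 0.0166). It had 0 counts in every bulk library, however, and lay near background in D2. Its ratio to the silent-gene density was 0.687 to 1.02 in the EGFP and 0.896 to 2.36 in the RXRa libraries. Because it lies within the Rarb gene body and strand use is not given, its counts cannot be told apart from those of Rarb.

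The genes whose levels followed the receptors most closely were other genes of such libraries. After subtracting group means, log2 levels of Rarb over the 35 sorted libraries correlated with those of Meis2 (r = 0.991), a homeobox gene of striatal projection neurons, Cacna2d3 (r = 0.990), a calcium channel subunit, and Lrtm1 (r = 0.989), out of 20157 genes. The gene bodies of Meis2, Cacna2d3 and Lrtm1 are 203, 817 and 15.4 kb long. For Rara the closest were Sdk2 (0.938), Gm20388 (0.935) and Galnt10 (0.933), and for Rarg Fdx1l (0.780), Foxk1 (0.765) and Cerk (0.747). Over the 8 group means the closest to Rarb were Fto (0.995), Rgs17 (0.993) and Enox1 (0.992), to Rara Gm20661 (0.998), Upk1a (0.994) and Zfp385c (0.993), and to Rarg Med29 (0.971), Osbpl7 (0.962) and Apoc3 (0.956). These r values are descriptions, since the points share library depth, scaling and background.

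The dimerization partners of the receptors had no call with the vector. The endogenous Rxra entry was 47.3 CPM in bulk RXRa and 51.4 CPM in bulk GFP libraries (log2 fold change -0.12, edgeR adjusted p = 0.428). In D2 it was 34.5 against 35.9 CPM (-0.05, edgeR adjusted p = 0.684). With a mean ratio to silent-gene density of 0.903 in sorted nuclei, the D2 values of Rxra describe mainly background. Rxrg, the main retinoid X receptor of striatum per exon length here, had log2 fold changes of -0.13 in bulk, 0.10 in D1 and 0.26 in D2 (adjusted p = 0.0903). With RXRa, Rxrg was higher in D2 than in D1 nuclei (log2 fold change 0.44, SE 0.12, edgeR adjusted p = 0.0313), at 66.5 against 49.3 CPM. That comparison called 8.38% of all genes, and the number called depended strongly on the settings, as given below for the coregulators. Rxrb was at 0.21 in D2 (adjusted p = 0.184).

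Genes that make, carry and degrade retinoic acid gave few calls. In bulk, edgeR called 0 of 16 tested, 3 had an unadjusted p under 0.05 and DESeq2 called 1, and the smallest p was that of Aldh1a2, a retinaldehyde dehydrogenase that makes retinoic acid, at 5.20 against 3.04 CPM (log2 fold change 0.77, adjusted p = 0.0631, no overlap). In D2, 1 of 21 was called higher and 2 lower, beside 14.9% and 7.14% of all genes, so the counts do not stand out from the background. Rdh10, which oxidizes retinol, rose from 23.2 to 29.6 CPM (log2 fold change 0.36, adjusted p = 0.0123), while Dhrs9 fell by 0.20 (adjusted p = 0.0374) and Lrat, which esterifies retinol, fell by 0.28 on the log2 scale (adjusted p = 0.0432). The median of the list in D2 was -0.12, beside -0.04 for all genes. In D2 EGFP libraries 1 of the 21 exceeded 2 times the silent-gene density (median ratio 1.18), so most of the list lay near background. The mean silent-gene density was itself lower in D2 with RXRa, at 0.460 against 0.530 CPM per kb. In D1, 0 of 21 were called, with the smallest p again at Aldh1a2 (-0.12, adjusted p = 0.638). Between populations under EGFP 0 of 21 were called, the smallest p being that of Aldh1a3 (-0.16, adjusted p = 0.382). Under RXRa, 1 of 21 was called higher in D2 than in D1 and 1 lower, beside 8.38% of all genes called, so these counts are near the background. They were Fabp5, a carrier of retinoic acid (0.68, edgeR adjusted p = 0.0367), and Bco1 (-0.25, edgeR adjusted p = 0.0346).

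Known targets of retinoic acid gave few calls, in both directions. In bulk, edgeR called 0 of 13 tested, with a median of -0.03, while 5 had an unadjusted p under 0.05 and DESeq2 called 1, and the smallest p was that of Tgm2, a transglutaminase, at 65.2 against 35.4 CPM (log2 fold change 0.88, adjusted p = 0.0544, no overlap). In D2, 3 of 20 were called higher and 1 lower, with a median of -0.07 against -0.04 for all genes, of which 14.9% were called higher and 7.14% lower. These counts are near the background. Beside Rarb these were Drd2, from 680 to 1120 CPM (log2 fold change 0.75, adjusted p = 0.0111), Tshz1, a striatal zinc finger factor (0.31, adjusted p = 0.0187), and Stra8, which fell by 0.29 (adjusted p = 0.0168). Cyp26a1, which holds the repeat shown above, was at -0.12 in D2 (adjusted p = 0.398) and stood at 1.09 to 2.39 times the silent-gene density in the sorted libraries. In D2 EGFP libraries 2 of the 20 targets exceeded 2 times that density (median ratio 1.17), so most of this list lay near background too. In D1, 0 of 20 were called and Rarb had the smallest p. Under EGFP, Drd2 was the 1 target called between D2 and D1 (log2 fold change 3.47, adjusted p = 1.75e-17). Under RXRa, Drd2 (3.88) and Nrip1 (0.19) were called higher in D2 and Stra8 lower (-0.27), beside 8.38% of all genes called. The calls of Drd2 between the populations follow from the sort, which is named for it, and are no result about retinoic acid targets.

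Corepressors and coactivators were called higher in D2 with RXRa in 9 of 15 cases, with a median of 0.24. Over all genes 14.9% were called higher. Among protein-coding genes above 2 times the silent-gene density under EGFP, 65% of those under 100 kb and 95% of the longer ones were, with medians of 0.44 and 0.45. Among those at or below that level, 18.2% and 25.5% were, with medians of -0.01 and 0.02. Of the 15 coregulators, 2 exceeded that level in D1 EGFP and 2 in D2 EGFP libraries (median ratios 1.61 and 1.54). Most were thus of the lower class, and what sets their count was not tested. The smallest p-values were those of Med1, a mediator subunit, at 41.8 against 34.1 CPM (log2 fold change 0.30, adjusted p = 0.0114), Crebbp (0.39, adjusted p = 0.0121) and Ep300 (0.38, adjusted p = 0.0132). With library totals in place of TMM, which moves the median of all genes in D2 from -0.04 to -0.20, 3 were called higher and 1 lower, and without the 2 D2 RXRa libraries named above none was. All calls of the retinoid, target and coregulator lists in D2 were lost when D2 female RXRa replicate 4 alone was left out. In bulk edgeR called 0 of 15 (2 at an unadjusted p under 0.05, and 2 by DESeq2), with Ncoa1 (-0.21) and Ncoa3 (0.15) at the same adjusted p of 0.094 and no overlap in either. In D1 0 of 15 were called (smallest p Tbl1x, 0.23, adjusted p = 0.594), and between populations under EGFP 0 of 15 (Gps2, 0.40, adjusted p = 0.472). Under RXRa 3 of 15, Med1, Ncor1 and Nrip1, were called higher in D2 than in D1, by 0.27, 0.31 and 0.19, beside 8.38% of all genes called. The number of genes called in that comparison fell from 3677 to 236 with the replicate block, to 34 in a fit of its own libraries and to 74 without the 2 low-density D2 RXRa libraries.

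Cell type markers of the sorted D2 libraries also moved with the vector. All 5 D2 markers in the table were above 0 (4 called higher, median log2 fold change 0.67), with summed levels of 888 to 2738 CPM with RXRa and 760 to 1470 CPM with EGFP. Of 6 D1 markers, 3 were called higher and 1 lower (median 0.34). Over all genes 14.9% were called higher and 7.14% lower. Called lower were 2 of 5 astrocyte, 2 of 5 fibroblast, 1 of 4 cortical excitatory and 1 of 5 T and NK cell markers and 8 of 20 interferon genes. Of 5 microglia markers 1 was called higher and 1 lower, and none of the 5 oligodendrocyte, 4 endothelial and 4 interneuron markers was called. In the D2 RXRa libraries the mean ratio to silent-gene density exceeded 2 for 1 oligodendrocyte and 1 interneuron marker, and for no astrocyte, microglia, endothelial, fibroblast, cortical excitatory or T and NK cell marker. The part of the purity of the sort in the Rarb value was not tested.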

How the data were processed

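RNA was measured by sequencing in 44 samples, 8 of bulk tissue (poly(A) RNA) and 36 of sorted nuclei (ribosomal RNA depleted total RNA, read in pairs of 150 bases), of which 1 was left out because its labels name both vectors. The authors deposited raw counts per gene for each library, and per the submitters' processing notes FastQC, Trimmomatic, HISAT2, Picard, featureCounts of Subread and the assembly GRCm38 were used. Versions and strand use in counting are not given in the sources used here.

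Counts were tested with edgeR 4.0.16 (R 4.3.3), using TMM scaling, its filter on low counts and the quasi-likelihood test, in 1 fit for bulk and 1 for all sorted groups. Benjamini-Hochberg adjustment ran over all genes tested, and genes under 0.05 were called. In all, 12 contrasts were tested. The standard error is the size of the log2 fold change divided by the root of F. DESeq2 1.42.0, limma 3.58.1 voom, other scalings and filters, a replicate block and leaving out each library were alternatives. A further alternative was a covariate, the log2 of silent-gene density on library totals. Shares were compared by exact two-sided permutation (SciPy 1.17.1). On simulated counts the edgeR fit recovered 98% of genes changed by 1 on the log2 scale in bulk (18380 genes) and 100% in D2 (43275 genes). The simulated spread was the same for every gene, with no background or other factor shared within a library. Changed genes were drawn from those with higher expected counts. These shares check the fit and do not measure its power in the real libraries.

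The members and the gene lists were chosen with earlier results of these data known. Named genes were the receptors, their partners and, for each list, the called genes or the gene with the smallest p. Gene models came from GENCODE M21, which matched 55394 of 55487 identifiers.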

Additional observations from a re-analysis of the deposited data

Results flagged for a closer look

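One library of sorted nuclei entered no comparison because its title and its vector label name different vectors. It had 24.5 CPM of Rara, 571 CPM of Rarb and 15.18 CPM of Rarg. Its Rarg value lay above the highest D2 female EGFP library (12.5 CPM), and also above the highest D2 female RXRa library (12.9 CPM) and the highest D2 male library (15.13 CPM). The vector's RXRa entry stood at 178 CPM in this library. That is within the 43.3 to 709 CPM of the sorted RXRa libraries and far above the 0.875 CPM reached at most with EGFP. By its counts the library thus held the RXRa vector. Its Rarb value lay below the D2 EGFP mean of 607 CPM, and the D2 comparison was not tested with it included. Tests for a single library far from the others in 30 sets of receptor values found none, where chance gives about 1 in 20.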

How the results depend on the processing

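Values are log2 fold changes unless stated. Rara in bulk passed with DESeq2 (0.26). Rarb in D2 lost its call with the silent-gene density covariate (-0.0456, sign reversed) and without both low-density D2 RXRa libraries (0.42, a setting chosen after seeing the data), and leaving out 1 library gave 0.45 to 0.68. In D2 females Rarb passed with DESeq2 (0.81), which called 3027 of all genes there where edgeR called 0, and leaving out 1 library gave 0.52 to 0.95, passing without RXRa replicate 3. With the covariate the sign of Rarb also reversed in D2 males (-0.18), for D2 against D1 under EGFP (0.0509) and under RXRa (-0.15), and for the difference of the vector effect (-0.20). Library totals gave -0.0426 for D2 against D1 under RXRa and -0.0005 for the difference of effects, and leaving out both low-density libraries gave -0.11 and -0.0559. Leaving out 1 library gave -0.10 to 0.0508 for D2 against D1 under EGFP, -0.0741 to 0.15 under RXRa and -0.0109 to 0.21 for the difference of effects. Rara in D2 turned positive with RLE factors (0.0128), DESeq2 (0.0118), the replicate block (0.0076), only the D2 libraries (0.0087) and without both low-density libraries (0.0201), with a range of -0.09 to 0.0397 when 1 library was left out. Rarg turned negative in D1 with library totals (-0.0485) and the covariate (-0.0061), and in D2 with library totals (-0.14) and the covariate (-0.0367), with ranges of -0.0039 to 0.0553 and -0.0452 to 0.0547 when 1 library was left out. The Rarb share in D2 was lower by 0.314 points (-0.314) after background subtraction, which put the shares close to their upper limit. The causes were not tested.

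Replicate numbers were not used to pair the samples in the main fits. Between libraries of the same number, correlations above 0.1 were found for 2 of 4 pairs in bulk, 3 of 4 in D1 females and 0 of 4 in D1 males. They were found for 1 of 3 pairs in D2 females and 2 of 4 in D2 males. The correlations ran from -0.597 to 0.722, and so few pairs can neither show nor exclude a pairing. With the replicate block Rarb in D2 was 0.61 and Rarb in bulk -0.22, and no receptor call changed. Of all genes, 687 were called in bulk, 1598 with DESeq2, 0 with the block, and 9 to 1016 when 1 library was left out. In D2 9683 were called, 2543 in a fit of the D2 libraries alone, 0 with the covariate, and 0 to 14763 when 1 library was left out. Library totals called 2063 of 11388 D2 genes higher, against 6548 of 9683 with TMM. For D2 against D1 under EGFP 53 were called, 92 with DESeq2, 133 in a fit of those libraries alone and 203 with the covariate. In nuclei the values of Rara and Rarg are limited by their closeness to background.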
